A study of Drosophila melanogaster with 6 samples.

Results

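The genes c-cup, CG31664, CG31933, robl22E, CG17237, CG31681, ppk13 and CG33509 stand in 3 runs of neighbouring genes on the left arm of chromosome 2. These 8 genes, out of 3326 listed in the authors' comparison, were chosen by their log2 ratios in that comparison, because they were higher together in the Domino knockdown. Those ratios are therefore given below as a description. The cells were GFP-positive, live-sorted cells from brains of wandering, last-stage Drosophila melanogaster larvae reared at 25 °C. The dom knockdown group (3 libraries) carried the driver insc::Gal4, the reporter UAS::CD8-GFP, UAS::Dcr-2, whose product strengthens RNA interference, and the hairpin transgene UAS::dom-RNAi, which came from w1118 males. The wild type group (3 libraries) carried the same driver, reporter and Dcr-2 transgenes, and its fathers were w1118 without the hairpin. By the authors' deposited table, transcripts linked to the transgenes differed between the genotypes, with Dcr-2 at 1.87-fold and w, whose shortened copy marks many fly transgenes, at 2.50-fold in the dom knockdown over wild type. The insc driver acts in neuroblasts, the stem cells of the larval brain, and GFP persists in their daughter cells, so the sort held neuroblasts with part of their progeny. The labels give neither the sex of the larvae nor the origin of the replicate sorts, which may be technical repeats, and the authors' errors would then cover only technical variation.

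Domino is the ATP-dependent motor of the fly Tip60 complex, which exchanges and acetylates the histone variant H2Av at chromatin. Genes that lie side by side in the fly genome are often active in the same tissue, and runs of genes used in the testis are a known example. The gene c-cup (calcutta cup) belongs to the comet and cup genes, which are transcribed late in sperm formation. The product of robl22E is a roadblock-type light chain of the microtubule motor dynein, ppk13 encodes a channel subunit of the degenerin family, CG33509 belongs to the ecdysteroid kinase-like family, and CG31681 to the serine proteases.

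The targeted gene dom had 0.671 times the wild type level in the dom knockdown by the authors' deposited table (log2 -0.58, SE 0.11), a partial decrease at the RNA level. In the file header the control stands first, and signs were turned here to give dom knockdown over wild type. Because dom helped to settle the sign, its decrease is not separate evidence of the knockdown. The table gave 1 ratio per gene with its standard error and a mean normalized count over the 6 libraries, and no values per library. Depth per library is therefore unknown, and whether the 3 dom knockdown libraries all lay above the wild type libraries was not examined. Of 8 neuroblast markers fixed for the sorted cells 2 (25.0%) were listed, against 28.0% of all genes tested and 18.3% of all annotated genes. The gene wor was higher in the dom knockdown (log2 0.61, SE 0.23, mean normalized count 8116) and grh lower (log2 -0.79, SE 0.31, mean normalized count 1934) by the authors' deposited table. The markers dpn, ase, mira, insc, klu and CycE have no value here because they were not listed. Fewer cells of a type and less RNA per cell cannot be told apart in such bulk samples.

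All 8 genes passed the authors' threshold, a DESeq2 adjusted p below 0.05, as the choice of members required. Of all 11859 genes tested, 28.0% passed, 13.9% as higher and 14.2% as lower in the dom knockdown. All 8 were at least 4-fold higher, which held for 2.60% of the genes tested. This size too reflects the choice of members by their ratios. An adjusted p below 0.01, which 19.7% of genes tested met, was met by 7 of the 8 and not by CG31681. The median log2 ratio of the 8 was 4.54 and that of all listed genes was -0.20. Their mean normalized counts ran between 10.5 and 357, with a median of 41.9, against a median of 1532 over all listed genes. All 8 thus lay below the median of listed genes, and 6 of the 8 lay below 100. The mean normalized counts of c-cup (357) and CG31664 (256) were higher, so these genes were less rare. Only genes past the threshold are listed, so the place of the 8 among all genes of these cells is not known.

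The first run holds c-cup, CG31664 and CG31933, within 11310 bases (dm6 2L:1821256-1832565). The gene c-cup (FBgn0031367, 2L:1831627-1832565, minus strand, 2 exons) had the largest increase of all 3326 listed genes, a log2 ratio of 8.04 with a standard error of 0.49 in the authors' deposited table, where the decrease of CG18853 was slightly larger in size (log2 -8.13, SE 0.58). That is 263-fold, with a 95% interval between 135-fold and 510-fold, at a mean normalized count of 357. CG31664 (FBgn0051664, 2L:1824172-1826500, minus strand, up to 5 exons) ranked 8th among increases, at a log2 ratio of 5.68 (SE 0.34, 51.1-fold) and a mean normalized count of 256 in the authors' deposited table. CG31933 (FBgn0051933, 2L:1821256-1823331, minus strand, 1 exon) was much rarer, with 10.5 normalized counts on average and a log2 ratio of 3.90 (SE 0.75, 14.9-fold) in the authors' deposited table. The interval of c-cup lay wholly above those of both neighbours, and those of CG31664 and CG31933 overlapped. The gap between c-cup and CG31664 was 5126 bases and that between CG31664 and CG31933 was 840 bases. In the RefSeq gene table CG31664 and CG31933 share the older name CG15622, so these neighbours once carried one gene name.

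The second run holds robl22E, CG17237 and CG31681, within 4814 bases (2L:2285925-2290738), 453359 bases from the first. All its members were near the lower end of what the table lists. The dynein light chain gene robl22E (FBgn0028570, 2L:2290224-2290738, minus strand, 2 exons) had a log2 ratio of 3.71 (SE 0.71, 13.1-fold) at a mean normalized count of 10.9 in the authors' deposited table. CG17237 (FBgn0031410, 2L:2288503-2289416, minus strand, 1 exon), for which the RefSeq table gives the synonym ELC4, had a log2 ratio of 3.20 (SE 0.58, 9.20-fold) at a mean normalized count of 18.1 in the authors' deposited table. The serine protease gene CG31681 (FBgn0051681, 2L:2285925-2286873, minus strand, 1 exon) had the smallest ratio of the 8, a log2 of 2.20 (SE 0.73) in the authors' deposited table. Its fold of 4.60 had a 95% interval between 1.70-fold and 12.5-fold, and its adjusted p was 0.0131 in the authors' deposited table (DESeq2). The intervals of all 3 genes overlapped, so their order by ratio is within their error.

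The third run holds ppk13 and CG33509, 283 bases apart (2L:21084605-21088751) and 18793866 bases from the second run. The channel gene ppk13 (FBgn0053508, 2L:21086790-21088751, minus strand, 7 exons) had a log2 ratio of 5.18 (SE 0.44, 36.2-fold) at a mean normalized count of 88.0 in the authors' deposited table. CG33509 (FBgn0053509, 2L:21084605-21086506, minus strand, 3 exons) had a log2 ratio of 5.27 (SE 0.49, 38.6-fold) at a mean normalized count of 65.8 in the authors' deposited table. The ratios of the pair differed by 0.09 on the log2 scale, less than either standard error. They ranked 11th and 10th among the increases of all listed genes. They too share an older name in the RefSeq table, CG14398.

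**Figure D1:**
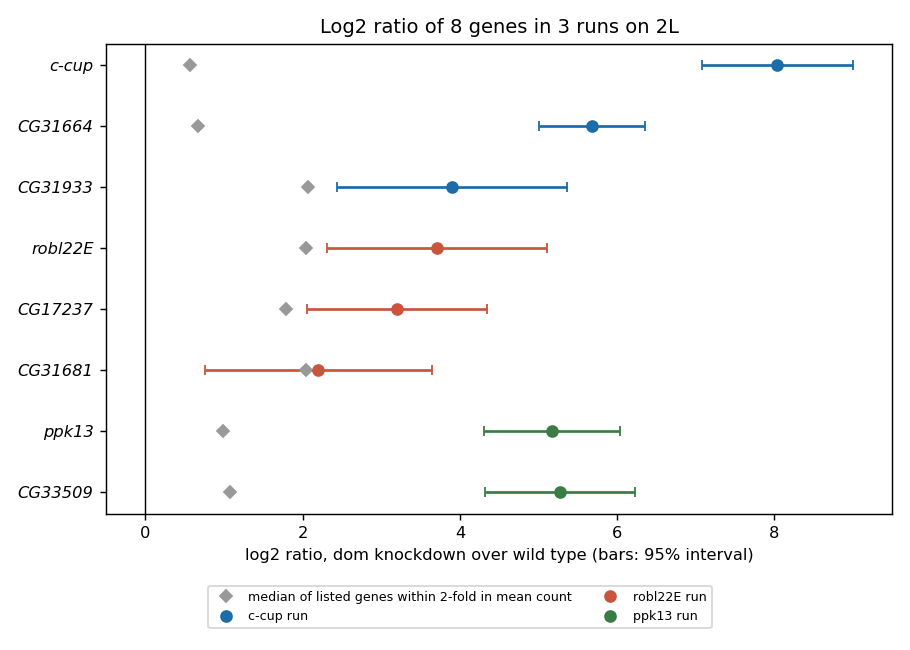
Log2 ratio of dom knockdown over wild type (x axis) for the 8 genes, ordered within each run in the direction of transcription; points are the authors' ratios, bars their 95% intervals, and grey diamonds the median ratio of listed genes within 2-fold of the same mean count. The ratio of c-cup, 8.04, lies farthest to the right, and the point of CG31681 at 2.20 lies beside its grey diamond at 2.04.

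The ratios were set beside those of listed genes of like abundance, because a rare gene needs a large ratio to pass. Among 124 listed genes of 10 to 20 mean normalized counts, the smallest log2 ratio in either direction was 1.12 and 94.4% were higher in the dom knockdown. None of the 458 other listed genes within 2-fold of the mean count of c-cup had a larger ratio than c-cup, and their median log2 ratio was 0.56. Larger ratios were held by 3 of 437 such genes for CG31664, by 2 of 392 for CG33509 and by 2 of 400 for ppk13. These 4 genes of the c-cup and ppk13 runs thus lay at the upper edge of listed genes of like mean count. Their choice by ratio favoured such a place, so it is a description only. The mean over both genotypes also rises with the ratio, and members were counted among the genes compared. Of the rare members, CG31933 was exceeded by 8 of 228, robl22E by 13 of 234 and CG17237 by 46 of 306. CG31681 lay near the middle, with 108 of 242 genes above it and a median of 2.04. The standard error of c-cup, 0.49, was larger than the median of 0.19 among genes of its abundance, while that of CG31681, 0.73, was near its own median of 0.64.

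**Figure D2:**
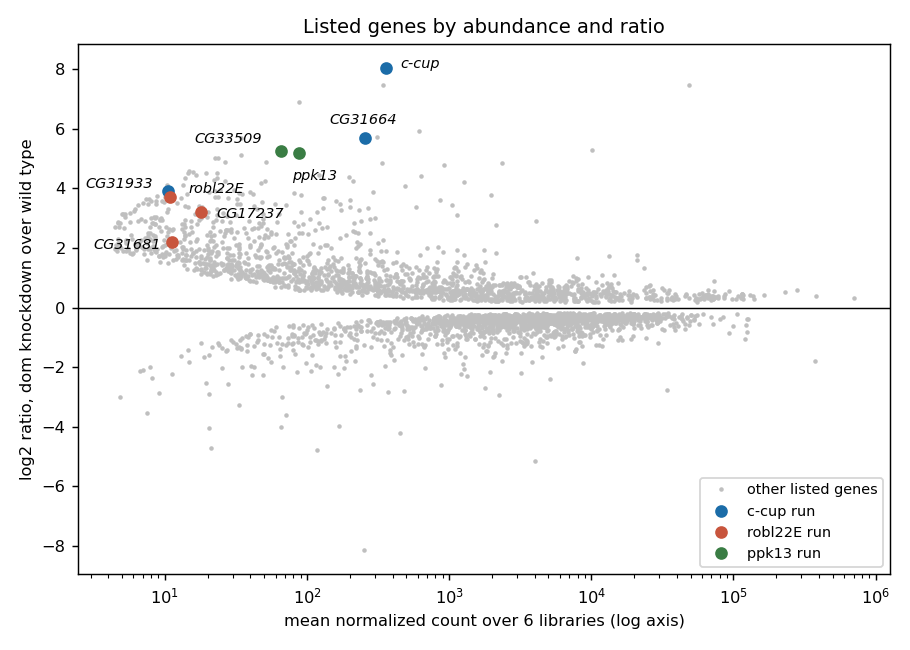
Log2 ratio of dom knockdown over wild type (y axis) against the mean normalized count over 6 libraries (x axis, log scale) for all 3326 listed genes, with the 8 genes coloured by run. The genes c-cup and CG31664 and both genes of the ppk13 run sit above most grey points of their abundance, and CG31681 sits among them.

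With equal group sizes the mean over all libraries and the ratio together imply a level for each genotype, provided that the authors' ratio was not shrunken, which the sources used here do not state. If the ratios were shrunken, the folds of the 8 genes are too small and their implied wild type levels too high. For c-cup the implied normalized count was 712 in the dom knockdown and 2.71 in wild type. For CG31664 it was 503 in the dom knockdown and 9.84 in wild type, and for CG31933 it was 19.7 in the dom knockdown and 1.32 in wild type. The 3 genes of the first run thus differed widely from each other in the dom knockdown, and all 3 were below 10 in wild type. In the second run robl22E had an implied 20.2 normalized counts in the dom knockdown and 1.54 in wild type. CG17237 had 32.6 in the dom knockdown and 3.55 in wild type, and CG31681 had 18.5 in the dom knockdown and 4.03 in wild type. Here both genotypes were low. In the third run ppk13 had an implied 171 normalized counts in the dom knockdown and 4.74 in wild type, and CG33509 had 128 in the dom knockdown and 3.32 in wild type. All 8 implied wild type levels were below 10, so each fold rests on a few normalized counts in wild type, and whether any wild type library was at 0 is unknown.

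**Figure D3:**
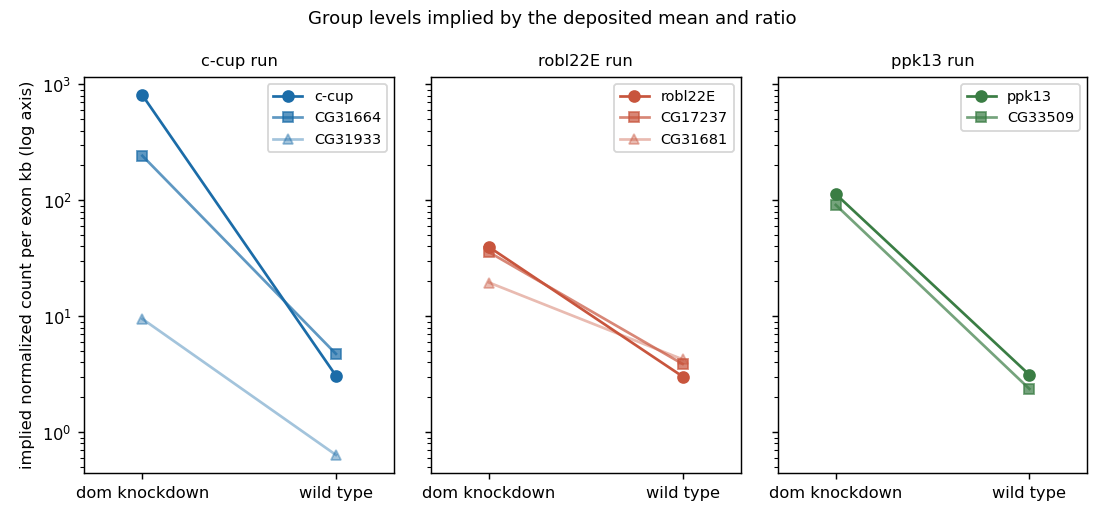
Implied normalized count per exon kilobase (y axis, log scale) in dom knockdown and wild type for the genes of each run, computed from the deposited mean and ratio; no error is drawn because the table gives none per group. The levels hold only if the authors' ratios were not shrunken. In wild type 7 of the 8 genes lie between 2.37 and 4.74, and in the dom knockdown the genes spread from 9.49 to 808.

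All 8 genes lie on the minus strand, so within each run they are read in the same direction. Per exon kilobase, the implied dom knockdown level was highest in the first-read member of each run and lower in each member after it. In the first run it was 808 for c-cup, 242 for CG31664 and 9.49 for CG31933. In the second run it was 39.5 for robl22E, 35.7 for CG17237 and 19.5 for CG31681, and in the third run 113 for ppk13 and 91.3 for CG33509. The log2 ratios had the same order in the first and second runs, but in the third run CG33509 was slightly above ppk13. Implied wild type levels per exon kilobase did not follow this order in the first run or in the second, where they were 3.02 for robl22E, 3.88 for CG17237 and 4.25 for CG31681. The intervals of the log2 ratios overlapped within each run, except that of c-cup, which lay above those of both its neighbours. The levels per exon kilobase have no intervals and hold only if the authors' ratios were not shrunken. With 3 runs and no values per library, their order was not tested. The genes are short, with a median of 1.18 kb of exon sequence against 2.45 kb over the 3000 listed protein-coding genes and 1.47 kb over the 245 of these that were at least 4-fold higher.

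The genes directly beside the runs were taken next. The rule for neighbours took every annotated gene inside a run and the 2 nearest on each side, 15 in all, of which 4 (26.7%) were listed and 11 were not, against 18.3% listed of all annotated genes and 28.0% of all genes tested. Genes outside the list either missed the threshold or had no test, and the size of their change is not known. Beside the third run none was listed, although CG33510, also on the minus strand, begins 278 bases beyond CG33509 and CG9259, on the plus strand, lies 623 bases from ppk13. Beside the first run wry, a plus-strand gene 3972 bases from c-cup, was not listed. On the other side of that run the nearest annotated gene, the taste receptor gene Gr22a, lies 26338 bases away and had a log2 ratio of 2.15 (SE 0.71) at a mean normalized count of 6.15 in the authors' deposited table. The microRNA gene mir-2280 lies inside c-cup on the same strand, where it covers 13.0% of the exon bases, and was not listed.

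The second run had listed genes within 1 kb of it. CG4271, on the plus strand, shares 2 exon bases with CG31681 and had a log2 ratio of 1.39 (SE 0.46) in the authors' deposited table. Beyond it the noncoding RNA genes lncRNA:CR43754 and lncRNA:CR43753 were also higher by the authors' deposited table, with a log2 of 1.54 (SE 0.46) for the nearer and 1.70 (SE 0.57) for the farther. These 3 ratios were below those of all 3 run members, and all 3 genes had mean normalized counts between 19.7 and 32.8 in the authors' deposited table. CG42658, which lies between CG17237 and CG31681 on the same strand, was not listed, so a gene with no value here interrupts the second run. CG31949 and CG16995 on the far side of robl22E were not listed.

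**Figure D4:**
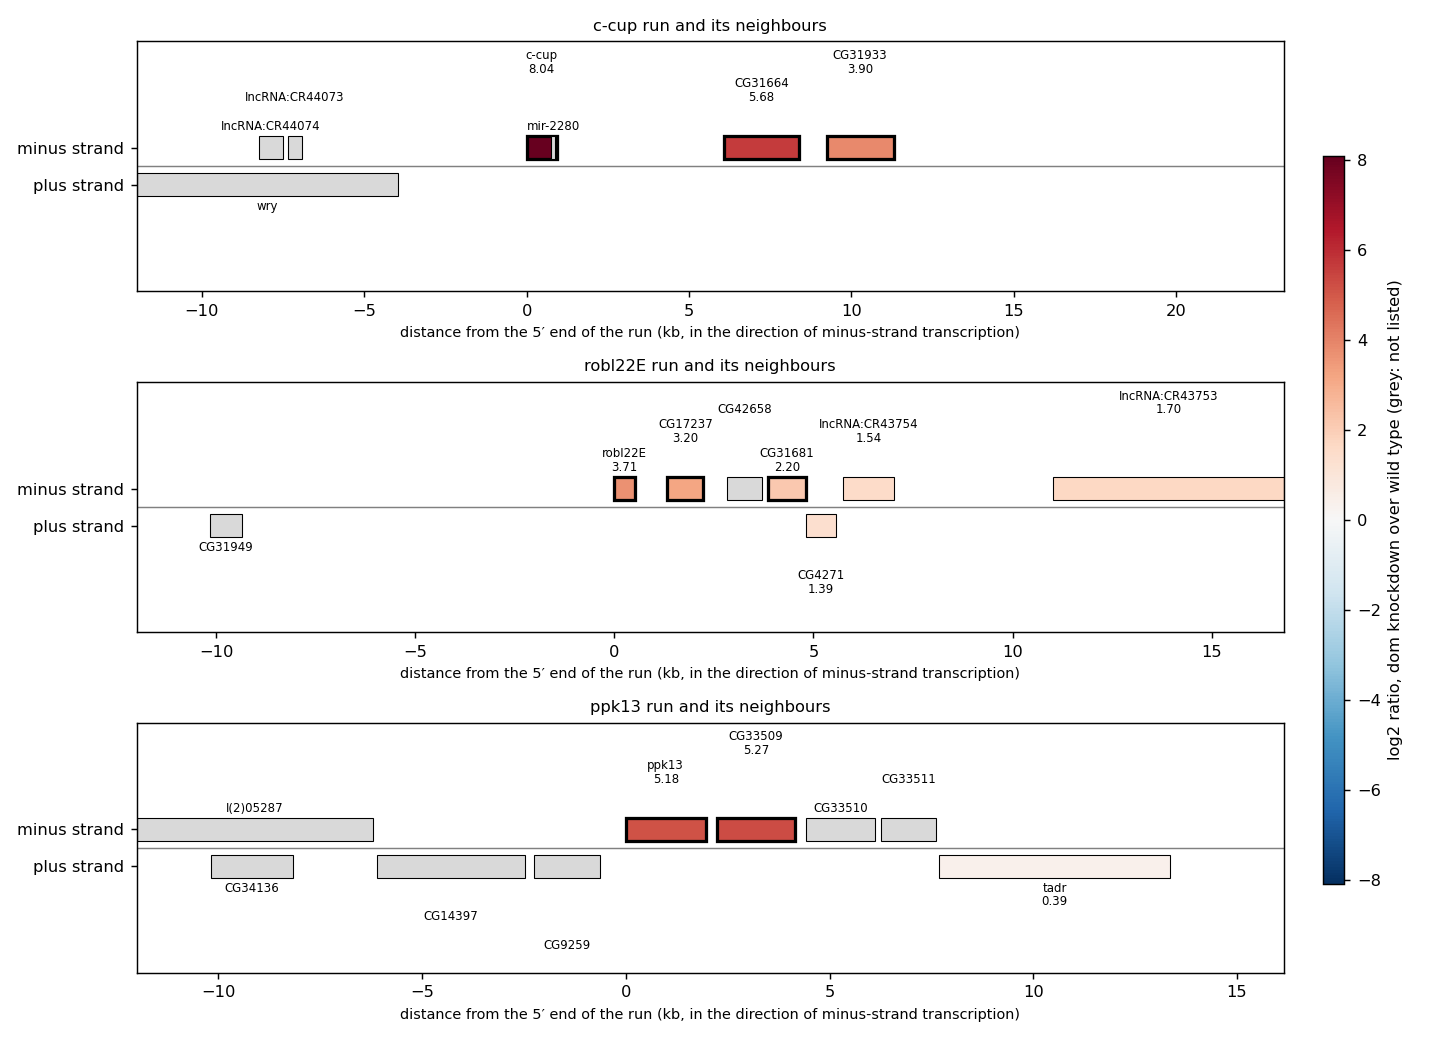
Maps of the 3 runs with up to 12 kb on each side; the x axis is the distance in kb from the 5′ end of the run in the direction of minus-strand transcription, boxes are annotated genes (thick outline for the 8 genes), and colour and number give the log2 ratio of dom knockdown over wild type, with grey for genes not listed. Increases reach past the named genes in the robl22E run, to 1.70 at lncRNA:CR43753, and no gene directly beside the ppk13 pair is coloured.

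Within 50 kb of a run, 12 of 54 other annotated genes were listed, or 22.2%, against 18.3% of all 17873 annotated genes. Of these 12, 9 were higher and 3 lower in the dom knockdown, while 49.5% of all listed genes were higher. Some of the 9 were rare, such as Gr22a (mean normalized count 6.15) and CG4267 (16.1). Of listed genes with 10 to 20 counts, a range that holds CG4267 but not Gr22a, 94.4% were higher. Others of the 9 were more abundant, such as CG9967 (639), so that share is no background for all 9. All 3 lower genes lay around the third run, namely CG9265 (log2 -0.68, SE 0.12), the sodium/proton exchanger gene Nhe2 (log2 -0.69, SE 0.12) and the endocytic scaffold gene Dap160 (log2 -0.31, SE 0.11) in the authors' deposited table. In the same window CG42238 was higher (log2 1.65, SE 0.15) at a mean normalized count of 7939, and tadr was slightly higher (log2 0.39) in the authors' deposited table. Of the 12 listed genes, 1 was at least 4-fold higher, and it was Gr22a. The number of listed neighbours depends on the window, with 7 at 25 kb and 28 at 100 kb, and at 100 kb 14 were higher and 14 lower.

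Runs of this kind were not limited to these 3. Joining listed genes that were at least 4-fold higher and at most 10 kb apart gave 44 runs of 2 or more genes over the genome, 12 of them on 2L with 36 genes. The same rule gave 10 runs with 25 genes on 2R, 5 runs with 11 genes on 3L and 11 runs with 23 genes on 3R. It gave 5 runs with 12 genes on X and 1 run with 2 genes on Y. On 2L 12.7% of listed genes were at least 4-fold higher, against 9.19% of listed genes on all chromosomes. This share was 9.09% on 2R and lower on 3L, 3R, X and chromosome 4. On Y it was 88.9%, of only 9 listed genes. Of the 44 runs 24 lay wholly on one strand, as all 3 runs described here do. By median log2 ratio the c-cup run ranked first of the 44 with 5.68, the ppk13 run was the third with 5.22 and the robl22E run 17th with 3.20.

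Relatives of the 8 genes elsewhere in the genome were listed in part, to be read against 28.0% of all genes tested and 18.3% of all annotated genes. Of 8 roadblock-type light chain genes, counting robl22E, 4 were listed, 3 higher and 1 lower. CG10834, on 2L as well and in a separate run of genes at least 4-fold higher, had a log2 ratio of 3.69 (SE 0.71) in the authors' deposited table, close to that of robl22E. The related robl37BC was higher by less (log2 0.65, SE 0.25), and robl, the abundant member with a mean normalized count of 3399, was lower (log2 -0.24, SE 0.09), in the authors' deposited table. Of 31 pickpocket-type channel genes, counting ppk13, 3 (9.68%) were listed, all higher. By the authors' deposited table, ppk15 had a log2 ratio of 1.17 (SE 0.46) and ppk29 one of 0.85 (SE 0.11), beside ppk13. The other 28 were absent from the list.

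Of 17 comet and cup genes c-cup was the only one listed (5.88%), while d-cup, m-cup, r-cup, s-cup, schuy, hale, soti and 9 others were not. Of 13 regulators of spermatocyte transcription 4 (30.8%) were listed, against 18.3% of all annotated genes and 28.0% of all genes tested. How many of the 13 were tested is not known. All 4 were higher: Taf12L (log2 1.42, SE 0.24), topi (log2 1.36, SE 0.37), can (log2 1.04, SE 0.23) and mia (log2 0.81, SE 0.25) in the authors' deposited table. The regulators aly, comr, sa and nht were among the 9 not listed. Of 17 spermatid and sperm protein genes 4 (23.5%) were listed, which lies between the shares of annotated and of tested genes. The sperm chromatin genes ProtB and Mst77F were higher (log2 4.57, SE 0.71, and log2 1.12, SE 0.43), and twe and betaTub85D were lower (log2 -0.63, SE 0.17, and log2 -0.66, SE 0.20), in the authors' deposited table. Of 8 male germline markers 4 were listed. The germline gene nos, named nanos in the annotation, was higher (log2 4.34, SE 0.60) at a mean normalized count of 23.3 in the authors' deposited table, can was higher too, twe and betaTub85D were lower, and vas, bam, aly and sa were not listed. On the Y chromosome 9 of 113 annotated genes (7.96%, against 18.3% of all annotated genes) were listed, and all 9 were higher, with a median log2 ratio of 2.94. The part of male germline RNA, or of the share of male larvae, in the increase of c-cup was not tested.

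Markers of other cell types differed between the genotypes as well. Against 28.0% of all genes tested, 3 of 6 neuron markers were listed, all lower, and 3 of 5 glia markers (60.0%), all higher. Blood cell markers were listed in 4 of 5 cases (80.0%), each of them lower, and of 4 fat body markers 1 (25.0%) was listed, apolpp, which was higher (log2 1.14). By the authors' deposited table, the blood cell genes PPO1, PPO2, Pxn and Hml had log2 ratios of -4.77, -1.51, -1.19 and -0.80. The neuron genes Rbp9, fne and Syt1 stood at -2.71, -0.87 and -0.60 in log2 by the authors' deposited table. The glia markers were alrm, gcm and repo, at log2 1.94, 0.72 and 0.56 by the authors' deposited table. The change of PPO1 was larger in size than those of some of the 8 genes, and that of Rbp9 was larger than that of CG31681 alone. The part of these cell types in the increases was not tested.

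The listed genes on other arms nearest to c-cup in ratio and mean normalized count together were the pseudogene CR33294 on 3R, lncRNA:CR45517 on X and the taste receptor gene Gr59d on 2R. The authors' deposited table gave them log2 ratios of 5.92, 5.74 and 6.91, all below that of c-cup. Their distances from c-cup were 2.26, 2.31 and 2.32 on the combined log2 scales, well beyond that of CG3635 on 2L, at 0.57. CG3635 had a log2 ratio of 7.47 (SE 0.45) at a mean normalized count of 340 by the authors' deposited table, and it lies in another run of genes at least 4-fold higher. With 1 comparison, likeness over several conditions could not be measured.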

How the data were processed

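RNA of sorted cells was sequenced with an Illumina TruSeq RNA kit after TRIzol extraction, per the labels' protocols. The submitters' processing notes name build dm6 and the tools STAR 2.3.0e, HTSeq 0.6.1, DESeq2 without a version, SAMtools 0.1.19 and FastQC 0.11.2. Annotation, strand setting, filters and shrinkage are not stated there. Per the file headers, the authors deposited for each gene a mean normalized count over all libraries (a signal that is never negative), a log2 ratio with its standard error, the Wald statistic, and p-values before and after adjustment. The file was decoded from UTF-7, and signs were turned to dom knockdown over wild type. Only genes with an adjusted p below 0.05 were present, and the p-values imply 11859 genes tested.

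Members and gene lists were chosen with earlier results of these data known. The rule for named genes took the 8 members, all genes inside the runs and the 2 nearest on each side, the 3 genes on other arms nearest to c-cup, dom, and the listed members of the lists; CG3635, CG18853, Dcr-2, w and genes within 50 kb of a run were named after their values were seen. The 95% intervals are normal limits around each ratio, from its deposited standard error. Positions (1-based) and exons came from Ensembl release 115, in dm6 coordinates, which matched 3264 of 3326 IDs, and older names from RefSeq. List names were matched by symbol, CG names also by synonym, and nos as nanos. No test of gene sets was made, and neighbours were joined at gaps of at most 10 kb. The counting of tests and the joining of runs were tested on simulated data. Python 3.11.15, pandas 2.3.3, scipy 1.17.1 and matplotlib 3.10.9 were used.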

Additional observations from a re-analysis of the deposited data

How the results depend on the processing

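No paired analysis was possible because the table used here held no values per library, and for the same reason leaving out each library was not run. The search for promoter motifs was not run, since no sequence was used. Of the 8 genes, 7 passed at an adjusted p below 0.01 or 0.001 and 7 had a 95% interval beyond 2-fold; CG31681 failed all of these. All 8 still passed with every log2 ratio shifted by 0.1 up or down. A mean normalized count of at least 50 left 4 genes, c-cup, CG31664, ppk13 and CG33509, so the second run and CG31933 rest on rare transcripts alone. Joining genes at gaps of at most 5 kb gave 4 runs, because c-cup then stood apart, and 20 kb gave 3. Listed neighbours numbered 12 within 50 kb, 7 within 25 kb and 28 within 100 kb. Exon bases were shared by 2 of the 8 genes, and by 1 when opposite-strand genes alone counted. All directions would swap if the header named the ratio in the other order, and c-cup would then be a decrease, with CG18853 the largest increase.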
